A study of Mus musculus with 72 samples.

Results

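The lipolysis and lipid droplet genes examined here were Pnpla2, Abhd5, G0s2, Lipe, Mgll, Plin1, Plin4, Cidec, Dgat2 and Lpl. They were taken as the rows of the count table whose Ensembl identifiers carry these symbols, which gave 10 of the 55416 genes in the table. All 10 were found, each in a single row. RNA was sequenced from epididymal white adipose tissue (eWAT), liver and pituitary of 24 adult male FVB.129P2 mice, which made 72 libraries. The dams were either fed ad libitum (FED) or calorie restricted by 20% (CR20) from embryonic day 15, and restriction ended when pups were weaned on postnatal day 21. From 8 weeks of age the offspring ate a control diet with 10% fat (TD.110675, CTRL) or a high fat diet with 45% fat (TD.06415, HFD), for 10 weeks in the males the paper describes with these data, although the labels also name a longer period. The 4 groups, FED-CTRL, FED-HFD, CR20-CTRL and CR20-HFD, held 6 mice each, and every mouse gave all 3 tissues. None of the groups carried a transgene, and the dam of each mouse was not analysed here, so siblings within a group are treated as separate mice. A bulk library mixes every cell type of the tissue.

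Fat cells store triglyceride in a droplet whose surface proteins decide how far lipases can reach it. In the field's usual account, ATGL removes the first fatty acid from triglyceride, hormone-sensitive lipase acts on the diglyceride that remains, and monoglyceride lipase frees the glycerol. The released fatty acids feed other organs during fasting, while lipoprotein lipase and the enzymes of triglyceride synthesis fill the droplet after a meal. Pnpla2, on chromosome 7 at 141034404 to 141040656 of GRCm39, encodes ATGL. Abhd5 (chromosome 9, 122180621 to 122222936) encodes its coactivator CGI-58, and G0s2 (chromosome 1, 192949563 to 192956177) encodes its inhibitor. Lipe (chromosome 7, 25078880 to 25098135) encodes hormone-sensitive lipase, and Mgll (chromosome 6, 88652108 to 88805342) encodes monoglyceride lipase. Plin1 (chromosome 7, 79369966 to 79382718) and Plin4 (chromosome 17, 56406617 to 56416931) encode perilipins, proteins that coat the droplet. Cidec (chromosome 6, 113400691 to 113412721) encodes a protein through which small droplets fuse into large ones. Dgat2 (chromosome 7, 98802491 to 98831991) encodes an enzyme of the final step of triglyceride synthesis. Lpl (chromosome 8, 69284603 to 69360100) encodes lipoprotein lipase, which takes fatty acids from circulating lipoproteins. G0s2, Lipe, Plin4, Mgll and Abhd5 each overlap a gene on the opposite strand, and reads of the 2 genes of a pair cannot be told apart if strand was not used in the counting. Over all libraries Plin4 held 1936053 counts and its partner Hdgfl2 76655, and G0s2 held 148821 and its partner Lamb3 11032. The Plin4 total came mostly from eWAT, where its median was 81777 counts per library, against 58 in liver and 28 in pituitary. The partners' counts were not split by tissue. These totals therefore do not show the share of a partner in liver or pituitary.

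The sequence just upstream of the start site of the canonical transcript differed among the members. The windows of 250 bases below are from the mouse genome assembly GRCm39 and run 5′ to 3′ on the strand of the gene, with each CG dinucleotide in capitals. They are shown for 2 genes with at most 1 CG, whose transcripts were mostly found in eWAT, and for 2 genes with many, whose transcripts were also abundant in liver. They lie at chr7:79382719-79382968 (minus strand, Plin1), chr7:25098136-25098385 (minus, Lipe), chr6:88701144-88701393 (plus, Mgll) and chr7:98831962-98832211 (minus, Dgat2).
Plin1: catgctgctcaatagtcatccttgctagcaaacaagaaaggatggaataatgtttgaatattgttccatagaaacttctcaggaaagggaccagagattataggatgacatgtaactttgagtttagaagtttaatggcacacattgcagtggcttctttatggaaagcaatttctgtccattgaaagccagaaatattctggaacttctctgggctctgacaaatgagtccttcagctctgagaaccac
Lipe: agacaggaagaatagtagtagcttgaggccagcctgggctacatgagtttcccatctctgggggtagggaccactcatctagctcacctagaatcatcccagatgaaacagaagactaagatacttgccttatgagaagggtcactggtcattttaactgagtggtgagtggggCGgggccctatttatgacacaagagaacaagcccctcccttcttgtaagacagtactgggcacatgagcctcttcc
Mgll: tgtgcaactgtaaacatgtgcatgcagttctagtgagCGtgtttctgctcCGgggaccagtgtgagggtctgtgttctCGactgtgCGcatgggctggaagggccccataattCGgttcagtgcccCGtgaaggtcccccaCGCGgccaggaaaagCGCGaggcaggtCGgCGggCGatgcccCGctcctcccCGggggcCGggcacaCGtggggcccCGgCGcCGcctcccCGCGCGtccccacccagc
Dgat2: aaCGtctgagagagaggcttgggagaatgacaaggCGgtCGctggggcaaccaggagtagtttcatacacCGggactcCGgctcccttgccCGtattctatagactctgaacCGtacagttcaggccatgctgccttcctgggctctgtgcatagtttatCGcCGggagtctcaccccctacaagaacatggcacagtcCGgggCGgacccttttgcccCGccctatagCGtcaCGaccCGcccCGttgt

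The number of CG dinucleotides in the window was 0 for Plin1, 1 for Lipe and Plin4, 7 for Lpl, 9 for G0s2, 10 for Pnpla2, 13 for Abhd5, 16 for Dgat2 and 23 for Mgll. Over the 21627 promoters of protein-coding genes the median was 8, with quartiles at 3 and 16. The DR1 motif, which is the nuclear receptor half-site AGGTCA followed after 1 free base by a second copy, was searched on both strands with at most 2 mismatches among its 12 fixed bases. It was matched in 1 of the 9 windows examined, that of Lipe, as GGGTCACTGGTCA at 112 to 100 bases before the start, and in 2.79% of all promoters. A match of letters is a description of the window, and no binding was measured here.

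The 10 genes were expressed most highly in eWAT. Levels are given as CPM, which are counts scaled to the size of the library within each tissue. They were divided by the summed exon length of the gene in kilobases, so that genes can be set side by side. That length joins the exons of all annotated transcripts and can exceed that of the expressed transcript. The order between genes therefore depends on the annotation. In eWAT the median over 24 libraries was 1117 CPM per kilobase for Cidec, 798 for Lpl, 574 for Dgat2, 562 for Plin4, 538 for Pnpla2, 354 for Mgll, 333 for Lipe, 318 for Plin1, 55.6 for G0s2 and 15.4 for Abhd5. By this measure, ATGL's coactivator and inhibitor stood below the lipase itself in level. Some neighbours in this order did not separate. Dgat2 exceeded Plin4 in 11 of the 24 libraries, Plin4 exceeded Pnpla2 in 16, and Mgll exceeded Lipe in 14. The remaining neighbours kept their order in 21 to 24 libraries.

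In liver the order of the same quantity was Dgat2 at 127 CPM per kilobase, Mgll at 49.7, Pnpla2 at 17.8, G0s2 at 14.9, Abhd5 at 3.19, Lipe at 2.74, Cidec at 1.76, Lpl at 0.799, Plin4 at 0.494 and Plin1 at 0.0086. The liver thus held transcripts for triglyceride synthesis and for monoglyceride lipase well above those of the adipocyte coat protein Plin1, which had 0 to 4 counts per library and was at 0 in 11 of 24. A count of 0 allows up to 3 counts. Pnpla2 exceeded G0s2 in 13 of 24 liver libraries and Abhd5 exceeded Lipe in 15, so these neighbours did not separate. In the pituitary, Pnpla2 led with 28.6 CPM per kilobase and was above Mgll, at 15.1, in every library. Lpl followed with 4.33, Dgat2 with 3.47, Lipe with 3.32, Abhd5 with 2.78, G0s2 with 2.66, Plin4 with 0.161, Cidec with 0.0159 and Plin1 with 0.0103. From Lpl down to G0s2 the neighbours exceeded each other in 14 to 22 of 24 libraries.

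**Figure D1:**
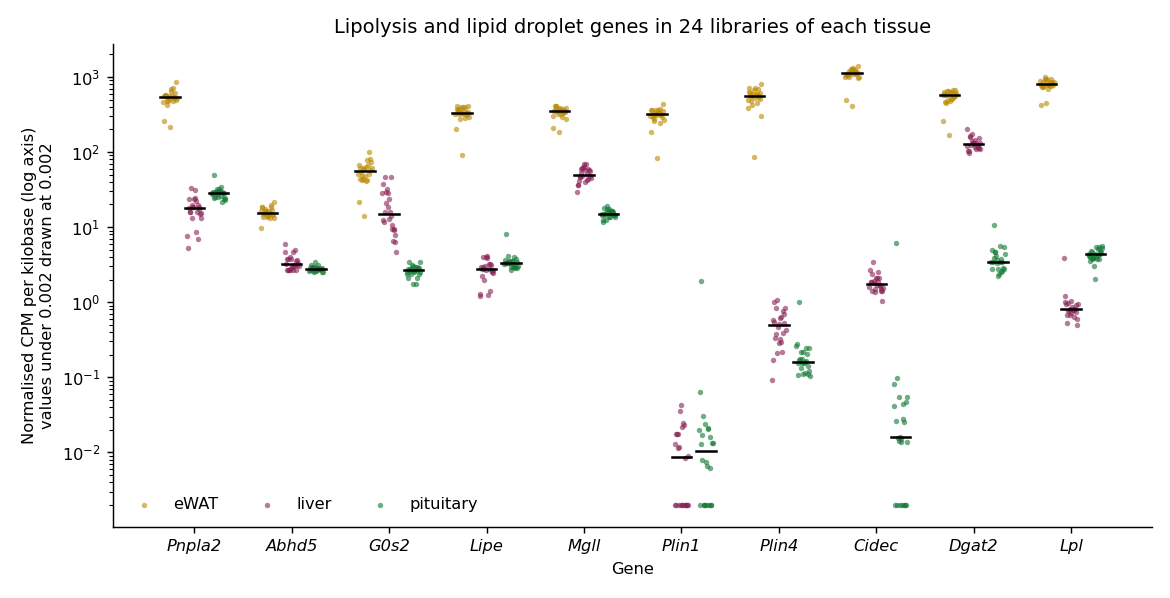
Levels of the 10 genes in eWAT, liver and pituitary, as CPM per kilobase of exon on a log axis. Each point is 1 of 24 libraries per tissue, the bar is the median, and values under 0.002 are drawn at 0.002. Every gene has its highest median in eWAT, and Plin1 has medians of 0.0086 in liver and 0.0103 in pituitary against 318 in eWAT.

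The tissues were compared in a single model over all 72 libraries, scaled together, so its fold changes differ from ratios of the levels above, which were scaled within a tissue. All 10 genes were higher in eWAT than in liver by edgeR's quasi-likelihood test with Benjamini-Hochberg adjustment. Of all genes tested, 83.5% were called in this comparison and 46.9% were called higher in eWAT. The log2 fold change was 0.78 (SE 0.18) for G0s2, 1.29 for Dgat2, 1.43 for Abhd5, 1.99 for Mgll, 4.19 for Pnpla2, 6.18 for Lipe, 8.45 for Cidec, 9.03 for Lpl and 9.30 for Plin4. Plin1 had 11396 to 55431 counts in the eWAT libraries, and no fold is given against its liver counts. The cytosolic lipases themselves thus differed widely, with Lipe 72.7-fold and Mgll 3.98-fold higher in eWAT.

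All 10 genes were also higher in eWAT than in pituitary, where 86.8% of genes were called and 44.2% were called higher in eWAT. The log2 fold change was 2.35 for Abhd5, 4.08 for Pnpla2, 4.23 for G0s2, 4.34 for Mgll, 6.41 for Lipe, 6.98 for Dgat2, 7.40 for Lpl and 11.29 for Plin4. Plin1 and Cidec stood at 0 to 8 counts in the pituitary libraries other than that of FED-HFD mouse 10, which is described further on. Between liver and pituitary 7 genes were called, in a comparison that called 89.6% of all genes. Of all genes 41.6% were called higher in liver. G0s2 (3.45), Mgll (2.35), Dgat2 (5.70), Abhd5 (0.91) and Plin4 (1.99) were higher in liver, and Lpl was lower there by a log2 fold change of -1.63. Cidec was also called higher in liver, and no fold is given against its pituitary counts. The difference for Pnpla2 was -0.12 with an adjusted p of 0.369, and for Lipe it was 0.23 with an adjusted p of 0.0551. Adipoq, the adipocyte hormone gene that marks fat, had 14038 to 93494 counts in eWAT and 0 to 6 in liver. Alb, the albumin gene, had 516581 to 1502961 counts in liver, and Gh, the growth hormone gene, had 4514398 to 7702229 in pituitary, so each tissue carried the markers of its label.

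Set beside the windows printed above, the 3 genes with at most 1 CG upstream (Plin1, Lipe and Plin4) were at least 72.7-fold higher in eWAT than in liver wherever a fold could be given. Of the 6 genes with 7 or more, 5 were 1.72- to 18.3-fold higher, and Lpl was 521-fold higher. These are descriptions of 9 chosen genes, with no test. Each window lies at the canonical start alone, and which start was used in each tissue was not examined.

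In eWAT, 2 libraries stood apart from the rest before any comparison. FED-HFD mouse 23 had the lowest level of 24 libraries for 8 of the 10 genes and was among the lowest 2 for 9. CR20-CTRL mouse 5 was among the lowest 2 for 9 and the lowest for 2. Summed over the 10 genes, mouse 23 stood at 12615 CPM and mouse 5 at 19108 CPM, while the other 22 libraries lay between 26358 and 33108 CPM. Results in eWAT are therefore given with all libraries and again with these 2 left out, an alternative chosen after the data were seen. The 2 libraries were picked by the levels of the same 10 genes. Adjusted p-values and calls of these genes without them are therefore descriptive and are not separate tests. In bulk tissue, fewer cells of a type and less RNA per cell cannot be told apart.

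HFD in the offspring of FED dams is the comparison of FED-HFD with FED-CTRL. All 10 genes had lower fitted levels in FED-HFD, none of them was called, and the medians of the log2 fold changes were -0.36 over the members and -0.0016 over all genes tested. Over all 15964 genes tested in eWAT, 10.5% were called and 25.7% had an unadjusted p under 0.05. Of the members, 3 had an unadjusted p under 0.05: Dgat2, Lpl and Plin1.

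Dgat2, the gene for triglyceride synthesis, had a lowest, median and highest level of 11.71, 11.90 and 11.98 log2 CPM in FED-CTRL and 10.00, 11.47 and 11.76 in FED-HFD. The groups overlapped narrowly, with mouse 23 far below its group. Its log2 fold change was -0.50 (SE 0.21, adjusted p = 0.134). Lpl ran at 13.35, 13.48 and 13.58 log2 CPM in FED-CTRL and 12.42, 13.15 and 13.34 in FED-HFD, so every FED-HFD library was below every FED-CTRL library. Its log2 fold change was -0.37 (SE 0.16, adjusted p = 0.138). The coat protein gene Plin1 likewise separated the groups, with 10.95, 11.03 and 11.20 log2 CPM in FED-CTRL against 9.03, 10.73 and 10.94 in FED-HFD, and a log2 fold change of -0.46 (SE 0.21, adjusted p = 0.179). Groups failed to overlap, with FED-HFD the lower, in 2.7% of all genes tested.

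The lipases were less separated. Pnpla2 had 10.88, 11.04 and 11.45 log2 CPM in FED-CTRL and 9.73, 10.88 and 11.14 in FED-HFD. Lipe had 10.94, 11.04 and 11.20 against 9.09, 10.81 and 11.06, and both genes overlapped between the groups. Their log2 fold changes were -0.28 (95% interval -0.73 to 0.16) and -0.36 (-0.80 to 0.09). Mgll, the last lipase of the chain, was the member nearest to no difference, with medians of 11.11 and 11.10 log2 CPM and a log2 fold change of -0.05 (-0.36 to 0.27). For the remaining members the log2 fold change was -0.47 for Plin4, -0.43 for G0s2, -0.29 for Cidec and -0.21 for Abhd5, each with an interval that included 0.

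With FED-HFD mouse 23 and CR20-CTRL mouse 5 left out, 9 members stayed below 0 with a median log2 fold change of -0.22, and Mgll turned to 0.09. Dgat2 (-0.34, adjusted p = 0.0115) and Lpl (-0.26, adjusted p = 0.0209) were then called, in a test that called 8.59% of all genes, and Plin1 (-0.28) had an adjusted p of 0.107. Without the 2 libraries the standard errors shrank along with the differences. The study's own kind of test, limma voom with library quality weights, called Dgat2, Lpl and Plin1 on all libraries, where it called 20.6% of all genes at an adjusted p under 0.05. Their log2 fold changes there, -0.39, -0.29 and -0.32, were smaller in size than the minimum of 0.58 that the study also required.

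**Figure D2:**
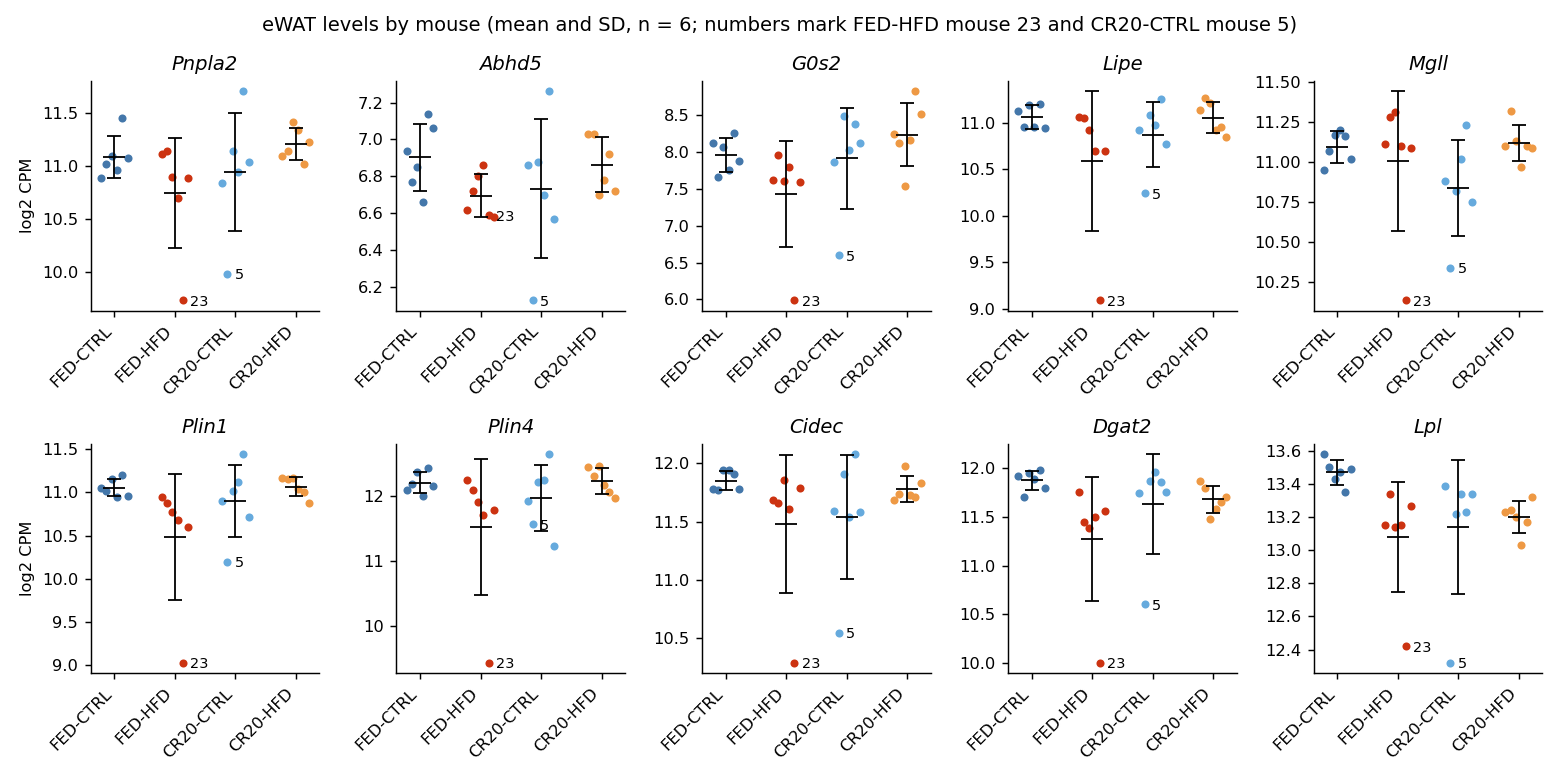
Levels of each of the 10 genes in eWAT by group, in log2 CPM, with 1 point per mouse and the mean and SD of 6 mice. The numbers 23 and 5 mark FED-HFD mouse 23 and CR20-CTRL mouse 5, which sit well below their groups for most genes, for example at 9.03 and 10.20 log2 CPM for Plin1.

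CR20-HFD with FED-HFD asks whether maternal restriction changed the adult level on HFD. All 10 genes had higher fitted levels in CR20-HFD, none was called, and the medians of the log2 fold changes were 0.34 over the members and 0.02 over all genes. Of all genes tested, 14.9% were called and 29.8% had an unadjusted p under 0.05. This comparison shares the FED-HFD libraries with the one above, so the 2 sets of signs are not separate observations.

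G0s2, the inhibitor of ATGL, differed most. Its lowest, median and highest levels were 5.99, 7.61 and 7.96 log2 CPM in FED-HFD and 7.54, 8.20 and 8.82 in CR20-HFD, and the groups overlapped. The log2 fold change was 0.74 (SE 0.27, adjusted p = 0.0707). With the 2 libraries left out it was 0.56 and passed the threshold (adjusted p = 0.0292, with 13.4% of all genes called). It also passed in DESeq2, which called 18.5% of all genes, and in limma voom with quality weights, which called 20.6%. In edgeR it passed without CR20-HFD mouse 31, where the adjusted p was 0.0486. Most settings did not call G0s2. It was called in 1 of 12 edgeR tests that left out a mouse, where the adjusted p reached 0.162, and in 3 of 9 other alternatives.

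Plin1 was at 10.88, 11.10 and 11.16 log2 CPM in CR20-HFD, overlapping the FED-HFD mice, with a log2 fold change of 0.47 (SE 0.21, adjusted p = 0.141). The log2 fold change was 0.50 for Plin4, 0.40 for Pnpla2, 0.35 for Lipe, 0.32 for Dgat2, 0.22 for Cidec and 0.17 for Abhd5, none of them past the threshold. Lpl, at 13.03, 13.22 and 13.32 log2 CPM in CR20-HFD, differed by 0.09 (95% interval -0.23 to 0.42), and Mgll by 0.07 (-0.24 to 0.39). For Lpl and Mgll the sign turned to -0.01 and -0.06 without the 2 libraries, where 8 of the members stayed above 0 and the median log2 fold change fell to 0.16. Lpl had medians of 13.48 in FED-CTRL, 13.15 in FED-HFD, 13.29 in CR20-CTRL and 13.22 log2 CPM in CR20-HFD.

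**Figure D3:**
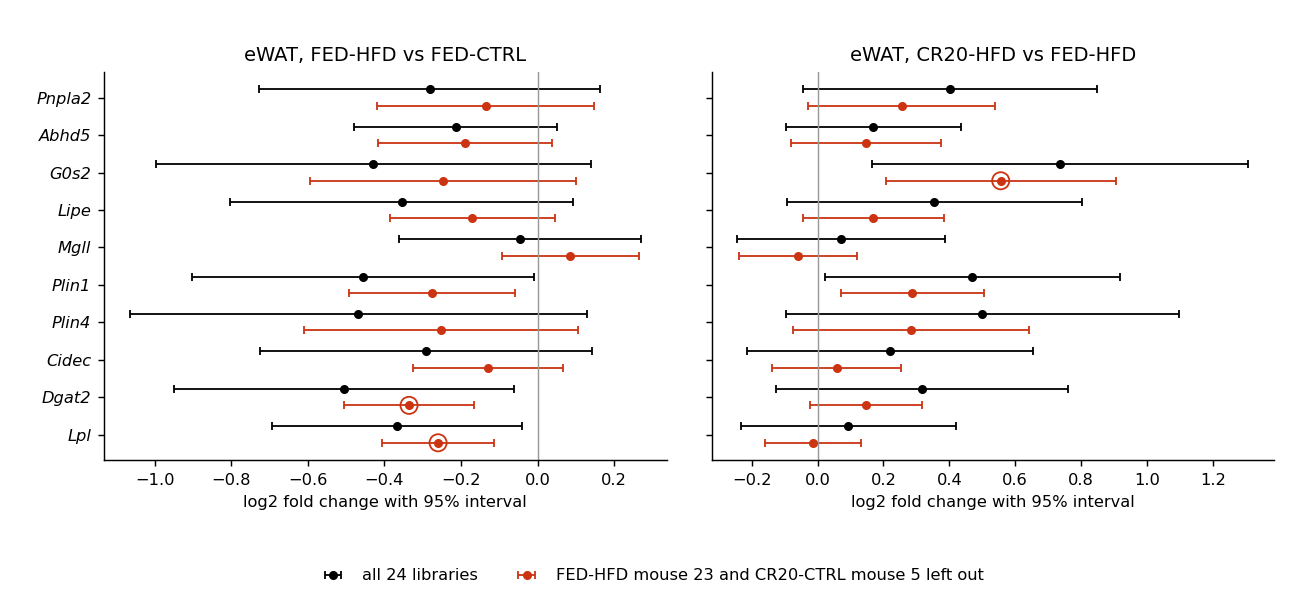
log2 fold changes of the 10 genes in eWAT with 95% intervals, for FED-HFD vs FED-CTRL on the left and CR20-HFD vs FED-HFD on the right. Black shows all 24 libraries and red the same test without FED-HFD mouse 23 and CR20-CTRL mouse 5, and circled points have an adjusted p under 0.05. Only Dgat2 and Lpl on the left and G0s2 on the right are circled, all in red. The libraries left out in red were picked by the levels of these genes, so the circles are descriptive.

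Within the offspring of CR20 dams no member was called for HFD. In CR20-HFD vs CR20-CTRL 9 members were above 0, with a median log2 fold change of 0.17 and adjusted p-values from 0.891 to 0.997. The widest of these differences was 0.26 for Mgll (95% interval -0.06 to 0.57), and Dgat2 was at -0.01 (-0.45 to 0.43). Of all genes 0% were called here by edgeR, no member had an unadjusted p under 0.05, and 6.03% of all genes had one. Without mice 23 and 5 the median was 0.04, with 7 members above 0 and 3 below, Mgll at 0.17 and Dgat2 at -0.15, and none was called or had an unadjusted p under 0.05. On CTRL diet, CR20-CTRL vs FED-CTRL put 9 members below 0 with a median of -0.17, from -0.29 for Lpl to 0.05 for G0s2, and adjusted p-values from 0.745 to 0.993. Again 0% of all genes were called, and 7.39% of them and no member had an unadjusted p under 0.05. Without mice 23 and 5 the median was -0.05, with 8 members below 0, Lpl at -0.17 and G0s2 at 0.22, and none was called, while Lpl alone had an unadjusted p under 0.05. Averaged over the maternal groups, the diet put 9 members below 0, with a median of -0.09 and none called, against 0.251% of all genes, and none with an unadjusted p under 0.05, against 17.1%. Dgat2 was then called only without the 2 libraries, at -0.25 (adjusted p = 0.0271, with 2.18% of all genes called), when 3 members, Dgat2, Lpl (-0.18) and Mgll (0.13), had an unadjusted p under 0.05.

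The difference between the diet responses of the maternal groups was tested directly as an interaction. It was above 0 for all 10 genes, from 0.30 for Mgll to 0.68 for G0s2 on the log2 scale, with a median of 0.48, and no member was called (adjusted p-values from 0.308 to 0.455, with 2.29% of all genes called and 18.2% at an unadjusted p under 0.05, which no member reached). A difference in diet response between CR20 and FED offspring was therefore not detected for any of these genes, with 95% intervals as wide as -0.17 to 1.51 for Plin4. Without the 2 libraries the median was 0.19 and none was called.

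The spread among mice also differed between the groups. The median SD of the members was 0.116 log2 CPM in FED-CTRL and 0.146 in CR20-HFD, against 0.614 in FED-HFD and 0.465 in CR20-CTRL. Over all genes tested the median SD was 0.180, 0.236, 0.316 and 0.335 in the same groups. Without mouse 23 the members' SD in FED-HFD was 0.141, and without mouse 5 that in CR20-CTRL was 0.248.

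Cell type markers were summed in the same eWAT libraries. The summed level of 12 macrophage markers ran from 2379 to 15682 CPM in FED-HFD, above the range of 884 to 2213 CPM over the other 18 libraries, and its highest value was that of mouse 23. Of the 12, 9 rose in FED-HFD vs FED-CTRL, 10 fell in CR20-HFD vs FED-HFD and 7 had a negative interaction, among them Adgre1, which encodes the macrophage surface protein F4/80, and Cd68. The summed level of 8 adipocyte markers, which hold none of the 10 genes, was 10591 to 13849 CPM in FED-CTRL, 2822 to 11857 in FED-HFD, 6378 to 16814 in CR20-CTRL and 12909 to 15769 in CR20-HFD, and mouse 23 and mouse 5 were the lowest of all. Of these 8, 1 fell in FED-HFD vs FED-CTRL and 2 rose in CR20-HFD vs FED-HFD. Over all eWAT genes tested, 10.5% and 14.9% were called in these comparisons, and 2.29% for the interaction. The adipocyte sum does not stand for each of its markers. Lep, 1 of the 8, had its highest eWAT level in FED-HFD mouse 13. The part of these cell markers in the members' values was not tested.

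Of 7 stromal progenitor markers 1 rose in FED-HFD vs FED-CTRL and none was called in CR20-HFD vs FED-HFD, while of 5 endothelial markers none and 1 were called. The shares of all genes called, given above, apply here too. Of 6 hepatocyte markers 5 were tested, of which 2, Apoa1 and Ttr, rose in FED-HFD vs FED-CTRL. Between the HFD groups the same 2 were lower and 1 marker was higher in CR20-HFD. The eWAT library with the most Apoa1, 108 CPM against a median of 0.297, was that of FED-HFD mouse 10. It also held the most Alb, 505 CPM against a median of 18.4. The part of this library in the calls was not tested. The hepatocyte markers summed to 7.95 to 982 CPM over the eWAT libraries. Markers of epididymis and testis were too low to be tested and summed to at most 134 CPM, in CR20-CTRL mouse 4, and of 7 pituitary markers 2 were tested and 0 called.

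**Figure D4:**
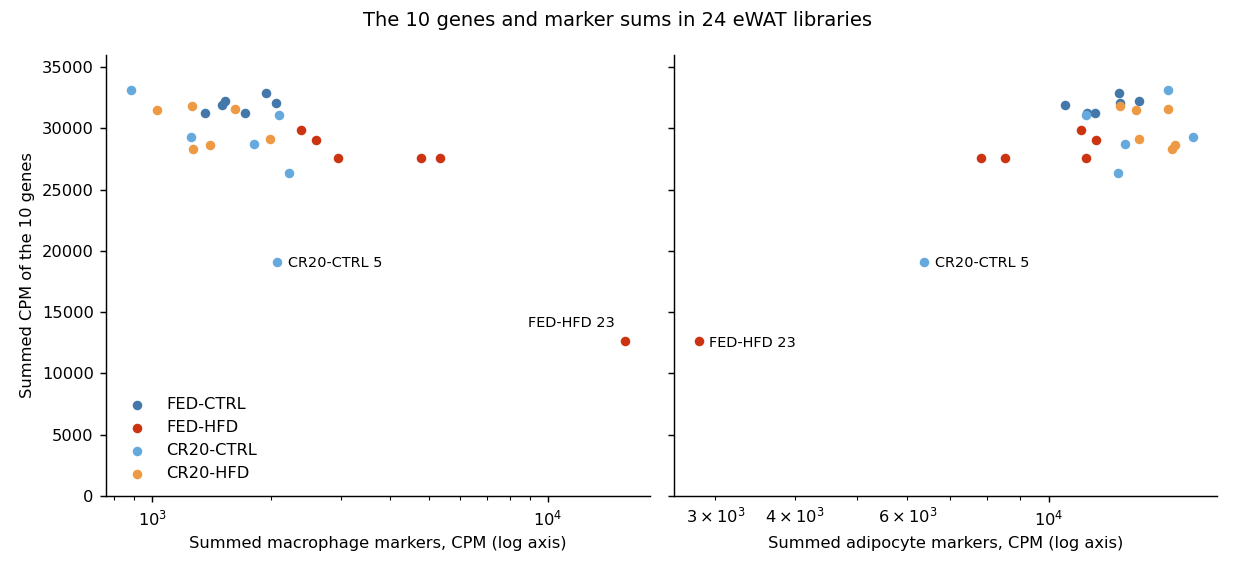
Summed CPM of the 10 genes against summed CPM of 12 macrophage markers (left) and 8 adipocyte markers (right) in 24 eWAT libraries, with log horizontal axes. FED-HFD mouse 23 is at 12615 CPM for the 10 genes and 15682 CPM for the macrophage markers, and CR20-CTRL mouse 5 at 19108 and 2067 CPM.

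Across the 24 eWAT libraries, the mean of the members' centred log2 CPM was followed most closely by Plin1 (Pearson's r = 0.975) and Lipe (0.968), and least closely by Abhd5 (0.658). Each member is part of that mean, which raises its r. Without the 2 libraries r was 0.933 for Plin1, 0.857 for Lipe, 0.757 for Abhd5, 0.305 for Mgll and 0.113 for Lpl. With them Mgll had been at 0.860 and Lpl at 0.820. The remaining members lay between 0.526 and 0.850 without the 2 libraries. Outside the 10 genes, the closest patterns were those of Coq9 (0.970), Fitm2 (0.966), Ormdl3 (0.962), Ehd2 (0.961) and Gm10687 (0.960), which went to 0.729, 0.758, 0.816, 0.890 and 0.790 without the 2 libraries. These correlations share libraries, cell mixture and depth, and are given as descriptions.

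The genes around the members were described through 73 further genes in 6 lists, of which 66 were tested in eWAT. In FED-HFD vs FED-CTRL 4 rose and 4 fell, with a median log2 fold change of -0.19. In CR20-HFD vs FED-HFD 7 rose and 3 fell, with a median of 0.20. These 8 and 10 of 66 genes are near the shares of all eWAT genes called, 10.5% and 14.9%, and show nothing particular to the lists. None was called in either comparison with CR20-CTRL.

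Among the other droplet coat genes, 12 of 14 were tested. Plin2 encodes the perilipin found on droplets of many cell types. Its lowest, median and highest levels were 9.10, 9.23 and 9.55 log2 CPM in FED-CTRL and 9.72, 10.00 and 11.36 in FED-HFD, so the groups did not overlap, which held for 6.76% of all genes in either direction. It rose by a log2 fold change of 1.05 (SE 0.24, adjusted p = 0.0077), while Plin1, Plin4 and Cidec had negative values. In CR20-HFD vs FED-HFD Plin2 fell by 1.10 (adjusted p = 0.00383). Ldaf1, which encodes a partner of seipin in droplet formation, fell by 0.46 in FED-HFD vs FED-CTRL (adjusted p = 0.0384) and rose by 0.53 in CR20-HFD vs FED-HFD (adjusted p = 0.0140). Aup1, whose product is found on droplets and in the endoplasmic reticulum, rose by 0.28 in FED-HFD vs FED-CTRL (adjusted p = 0.0435). When a mouse was left out, the FED-HFD vs FED-CTRL call held in 4 of 12 tests for Ldaf1 and 2 of 12 for Aup1.

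Of the other lipases, 9 of 10 were tested. Lipa, which encodes the acid lipase of the lysosome, was at 6.78, 6.97 and 7.23 log2 CPM in FED-CTRL, 7.77, 8.47 and 10.65 in FED-HFD, 6.18, 7.02 and 7.60 in CR20-CTRL and 6.25, 6.65 and 7.18 in CR20-HFD. Every FED-HFD mouse was above every mouse of the other groups. Between FED-HFD and FED-CTRL alone, the groups failed to overlap in 6.76% of all genes, in either direction. Lipa rose by 2.14 in FED-HFD vs FED-CTRL (adjusted p = 0.00297) and fell by 2.41 in CR20-HFD vs FED-HFD (adjusted p = 6.11e-04). Its interaction of -2.41 (SE 0.53, adjusted p = 0.0322) was the one called among the 66, where 2.29% of all eWAT genes were called. A single call among 66 shows nothing particular to the lists. The Lipa interaction was called in 10 of 24 tests that left out a mouse and in 7 of 8 other alternatives. Abhd12, which encodes a lipase of lysophospholipids and monoglycerides, rose by 0.58 and fell by 0.64 in the same comparisons. Plin2, Lipa and Abhd12 kept these calls in all 12 tests that left out a mouse and in the 9 other alternatives, in both comparisons. The highest value of Plin2 and of Lipa in FED-HFD was that of mouse 23, which also had the highest macrophage sum.

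In triglyceride synthesis, 12 genes were tested. Gpat3, for an acyltransferase of the first step, fell by 0.73 in FED-HFD vs FED-CTRL and rose by 0.71 in CR20-HFD vs FED-HFD. Lpin1, for a phosphatidate phosphatase, fell by 0.69 in the former. Mogat1, for a monoacylglycerol acyltransferase, rose by 0.99 in the latter, and Gpat4 by 0.35. In lipolytic signalling, with 17 genes tested, Ptger3, a prostaglandin E receptor gene, fell by 0.92 in FED-HFD vs FED-CTRL, and Npr1, a natriuretic peptide receptor gene, rose by 0.47 in CR20-HFD vs FED-HFD. Of 7 tested partners of lipoprotein lipase, Gpihbp1, for its anchor on capillary endothelium, rose by 0.86 in CR20-HFD vs FED-HFD and Lmf1, for a factor of lipase maturation, by 0.36, while the lipase gene Lpl itself had a value of 0.09. None of 9 tested genes for the handling of released fatty acids and glycerol was called. The adjusted p-values of these 8 genes lay between 0.0202 and 0.0458, and each lost its call in at least 2 of the 12 tests that left out a mouse, up to 10 of 12 for Npr1.

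In liver, 9 of the 10 genes were tested, without Plin1, and none was called in any comparison. Of all liver genes 0.109% were called for the diet in offspring of FED dams, 0.515% for the diet in offspring of CR20 dams and 1.74% for the diet averaged over maternal groups, and 0% in the other 3 comparisons. A single member had an unadjusted p under 0.05 for the diet in offspring of FED dams (6.66% of all genes), for the diet in offspring of CR20 dams (9.57%) and between the CTRL groups (2.17%). No member had one between the HFD groups (3.58%), for the averaged diet (13.2%) or for the interaction (1.76%). Dgat2, the member with the highest liver level per length, was at 9.53, 9.62 and 10.04 log2 CPM in FED-CTRL, 9.28, 9.59 and 9.94 in FED-HFD, 9.37, 9.65 and 10.26 in CR20-CTRL and 9.19, 9.40 and 9.75 in CR20-HFD, and all groups overlapped. Its log2 fold change in CR20-HFD vs CR20-CTRL was -0.31 (adjusted p = 0.522). Cidec had medians of 2.39 log2 CPM in FED-CTRL and 2.72 in FED-HFD, with a log2 fold change of 0.45 (adjusted p = 0.725).

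For Lpl in CR20-CTRL vs FED-CTRL the liver value was 0.83 (adjusted p = 0.999), and it rested on CR20-CTRL mouse 4, at 5.58 log2 CPM against at most 3.89 elsewhere. Without that mouse it was 0.12. Pnpla2 and Lipe were jointly low in the livers of 4 mice from 3 groups (FED-CTRL 41, CR20-CTRL 4 and 5, CR20-HFD 32), with Pnpla2 at 4.37 to 5.10 log2 CPM against at least 5.69 in the other 20. G0s2 had the largest SD of the tested members in each of the 4 groups and ran from 4.42 to 7.42 log2 CPM in CR20-CTRL alone.

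Of the surrounding genes 65 were tested in liver, and 3 were called in a diet comparison. Fabp5, for a fatty acid binding protein, fell by 1.98 in FED-HFD vs FED-CTRL (adjusted p = 0.0119) and by 1.89 in CR20-HFD vs CR20-CTRL (adjusted p = 0.00296). Pnpla3, a patatin-like relative of Pnpla2, fell by 4.93 in CR20-HFD vs CR20-CTRL (adjusted p = 0.0131), with medians of 1.64 log2 CPM in CR20-CTRL and -1.63 in CR20-HFD. Its medians were 1.99 in FED-CTRL and -1.06 in FED-HFD, where it was not called, and its interaction was not called either. The lowest FED-HFD value, -2.92, is that of a 0 count, and the SD in CR20-CTRL was 2.42, so these falls are imprecise in size. Gpam, for an acyltransferase of the first step of triglyceride synthesis, fell by 1.51 in CR20-HFD vs CR20-CTRL (adjusted p = 0.0314). The call was lost in 3 of 8 alternatives for Pnpla3 and in 4 of 8 for Gpam, and in none for Fabp5. With a mouse left out, it held in 11 of 12 tests for Pnpla3, in 5 of 12 for Gpam and in 12 of 12 for Fabp5. For the diet averaged over maternal groups Fabp5 fell by 1.94, Pnpla3 fell by 4.43 and Gpam fell by 1.14.

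In the pituitary, 8 of the 10 genes were tested, without Plin1 and Cidec, and none was called. Of all genes tested, 0.024% (4 genes) were called by edgeR for the diet averaged over maternal groups and 0% in the other 5 comparisons, and DESeq2 called Mgll in CR20-CTRL vs FED-CTRL. An unadjusted p under 0.05 was found for 2 members in FED-HFD vs FED-CTRL (9.64% of all genes), 1 in CR20-HFD vs CR20-CTRL (7.28%), 3 in CR20-HFD vs FED-HFD (6.77%), 2 in CR20-CTRL vs FED-CTRL (17.3%), 1 for the averaged diet (6.23%) and 2 for the interaction (11.0%). The library of FED-HFD mouse 10 differed from the others. It held 239 counts of Plin1 against 0 to 8 in the other 23 libraries, 380 of Cidec against 0 to 6, and 158 of Plin4 against 17 to 49. Lipe, at 965 counts against 334 to 600, Dgat2, at 1286 against 298 to 779, and Pnpla2, at 3884 against 1837 to 3077, were also highest there, so 6 of the 10 genes had their highest value in it. Adipoq had 290 counts in that library and 0 to 5 in the others, and the 8 adipocyte markers summed to 49.0 CPM against at most 11.1 CPM elsewhere. The Abhd5, G0s2, Mgll and Lpl levels of mouse 10 lay within the range of the others.

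**Figure D5:**
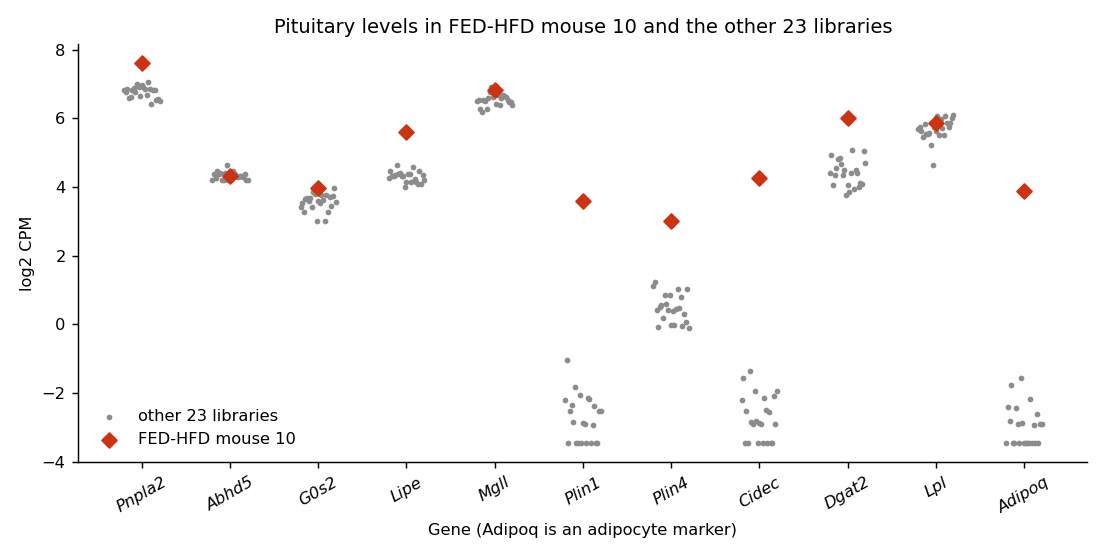
Levels of the 10 genes and of the adipocyte marker Adipoq in 24 pituitary libraries, in log2 CPM, with FED-HFD mouse 10 as a diamond and the other 23 libraries as grey points. The diamond is at 3.60 for Plin1 and 4.26 for Cidec, where the other libraries reach at most -1.03 and -1.36.

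That library enters every pituitary comparison with FED-HFD. In FED-HFD vs FED-CTRL the log2 fold change of Plin4 was 0.90 and that of Lipe 0.42, and without mouse 10 they were 0.13 and 0.14. Between the HFD groups the values were -1.29 for Plin4, -0.35 for Lipe and -0.72 for Dgat2, and without mouse 10 they were -0.52, -0.07 and -0.30. The interaction for Plin4 went from -1.47 to -0.69, and that for Dgat2 from -1.04 to -0.62. The part of adipocyte RNA in this library was not tested further.

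Comparisons between the CTRL groups do not use that library. Mgll was at 6.58, 6.71 and 6.90 log2 CPM in FED-CTRL pituitaries and 6.38, 6.48 and 6.54 in CR20-CTRL, so the groups did not overlap. This pattern was seen in 0.738% of all genes, and in 0.342% with CR20-CTRL the lower. Its log2 fold change was -0.26 (SE 0.08, adjusted p = 0.124), with an adjusted p of 0.0497 in DESeq2, which called 2.23% of genes. Lpl was at 4.63, 5.53 and 6.06 log2 CPM in FED-CTRL and 5.68, 5.92 and 6.09 in CR20-CTRL, with a log2 fold change of 0.40 (adjusted p = 0.153). Without FED-CTRL mouse 42 it was 0.55 (adjusted p = 0.0273, with 3.22% of genes called). The tests that left out any other mouse called no member in this comparison. Dgat2, at medians of 4.81 log2 CPM in CR20-CTRL and 4.08 in CR20-HFD, had a log2 fold change of -0.61 that did not pass the adjusted threshold. None of the 61 surrounding genes tested in pituitary was called.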

How the data were processed

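Libraries were made with a TruSeq kit for stranded total RNA (Gold) per the labels, and the methods also name an mRNA kit. The authors sequenced paired reads, checked them with FastQC, trimmed them with Trimmomatic, aligned them to GRCm39 with STAR and counted them per gene with Subread's featureCounts. Versions and the strand setting of the counting are not given in the sources used here, so reads of a gene and of an overlapping gene on the opposite strand cannot be told apart. The deposited table holds raw counts per Ensembl gene, of which 54749 of 55416 identifiers matched GENCODE M39. Library totals ran from 11589675 to 22364963 counts in eWAT, 9842813 to 19928212 in liver and 18299494 to 27601208 in pituitary, and set the counting error of low genes. No pair of libraries held identical counts.

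Each tissue was tested on its own with edgeR 4.0.16 (R 4.3.3): filterByExpr, which kept 15964, 13787 and 16657 genes in eWAT, liver and pituitary, TMM scaling, glmQLFit and glmQLFTest on 24 libraries with 4 group means, and Benjamini-Hochberg adjustment over all genes kept. A gene was called at an adjusted p under 0.05. Log2 CPM used a prior count of 2. Standard errors are the log2 fold change over the square root of F, and 95% intervals use 20 residual degrees of freedom, or 18 without 2 libraries. Tissues were compared over 72 libraries with 12 group means. Tissues of the same animal number come from the same mouse per the labels; the deviations of the same mouse had a median correlation of 0.034, 0.028 and 0.035 between eWAT and liver, eWAT and pituitary, and liver and pituitary. The methods and the labels give a diet of 10 weeks or a longer period, and 10 weeks is the period the paper gives with its results for males.

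Alternatives were limma 3.58.1 voom with and without quality weights, DESeq2 1.42.0, DESeq2 size factors, no filter, 1 CPM exceeded in 6 or more libraries, a covariate for the range of animal numbers, only the groups compared, call rules with a fold minimum, and each mouse left out in turn. On simulated counts with 200 genes changed by a log2 fold of 2 in CR20-HFD vs FED-HFD, 191 of 200 were recovered in eWAT, 195 in liver and 197 in pituitary (15810, 13550 and 16503 genes). Unchanged genes called in the same tissues numbered 9, 5 and 8. The planted change was larger than any eWAT difference of the members, which reached 0.74. No simulated library was made to stand apart as mice 23 and 5 did. The recovery therefore does not measure the power for the members. Text tables were made with Python 3.11.15 and pandas 2.3.3.

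The members, gene lists and tests were chosen with earlier results of these data known. Beyond the members, a list's genes were named if called in an eWAT comparison of FED-HFD with FED-CTRL or CR20-HFD (at most 4 by p) or in a liver diet comparison (at most 2). The 5 genes most like the members were named by Pearson's r over 24 eWAT libraries. Hdgfl2 was named for its overlap with Plin4. The upstream window of 1 member is not reported here.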

Additional observations from a re-analysis of the deposited data

Results flagged for a closer look

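A value was marked when the highest or lowest of the 6 mice of a group stood apart from the rest by a larger share of the group's range than Dixon's 95% limit. This was asked of 108 combinations of member, tissue and group, and 17 of them (15.7%) had such a value, where chance gives about 1 in 20. Most came from 2 eWAT libraries, each counted once per gene. The marks are therefore not independent, and 15.7% cannot be set directly against that rate.

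FED-HFD mouse 23 was the low value of its eWAT group for 9 of the 10 genes, at 9.73 log2 CPM for Pnpla2, 5.99 for G0s2, 9.09 for Lipe, 10.14 for Mgll, 9.03 for Plin1, 9.43 for Plin4, 10.29 for Cidec, 10.00 for Dgat2 and 12.42 for Lpl. The exception was Abhd5. The same library had the highest sum of macrophage markers, 15682 CPM, and the lowest sum of adipocyte markers, 2822 CPM. CR20-CTRL mouse 5 was the low value of its eWAT group for 4 genes, at 6.60 for G0s2, 10.55 for Cidec, 10.60 for Dgat2 and 12.32 for Lpl. Its macrophage sum, 2067 CPM, lay within the range of its group, while its adipocyte sum, 6378 CPM, was the lowest of the group. The part of cell mixture in either library was not tested.

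Single values stood apart elsewhere, no more of them than the chance rate would give. In eWAT, Pnpla2 was high in FED-CTRL mouse 41, at 11.45 log2 CPM with the next mouse at 11.09. In liver, G0s2 was high in CR20-HFD mouse 32, at 7.74. In pituitary, Plin4 was high in FED-HFD mouse 10, at 3.00, the library with 290 counts of Adipoq, and Pnpla2 was low in CR20-HFD mouse 7, at 6.60.

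Among the surrounding genes, the diet response of Lipa in eWAT differed between the maternal groups by a tested interaction of -2.41 on the log2 scale (edgeR adjusted p = 0.0322), with a rise of 2.14 in the offspring of FED dams. Lipa was the 1 gene called among the 66 tested, where 2.29% of all eWAT genes were called. Without FED-HFD mouse 23 and CR20-CTRL mouse 5 the interaction was -1.56 (adjusted p = 0.0401).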

How the results depend on the processing

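No member was called within a tissue. Counts of members called, tissue comparisons included, stayed within 1.5 times of those reported in 189 of 198 values under other settings and in 358 of 360 with a mouse left out. A reported count of 0 stayed only where it was 0 again. The 198 include call rules with a fold minimum applied to the main edgeR test. The lowest adjusted p of a member there was 0.0707, so those values could not differ from 0. In eWAT FED-HFD vs FED-CTRL, limma voom with quality weights called 3 members and edgeR without mice 23 and 5 called 2. In eWAT CR20-HFD vs FED-HFD, 1 member, G0s2, was called by limma voom with quality weights, by DESeq2 and without mice 23 and 5, and 0 to 1 with a mouse left out. For the eWAT diet effect averaged over maternal groups, 1 was called without mice 23 and 5. With no filter, 2 pituitary members, Cidec and Plin1, were called in each comparison of FED-HFD with FED-CTRL or CR20-HFD, and both had their highest counts in FED-HFD mouse 10. In pituitary CR20-CTRL vs FED-CTRL DESeq2 called 1 (Mgll), and 0 to 1 with a mouse left out. With mice of each tissue paired as a replicate block, 10, 10 and 7 members were called between eWAT and liver, eWAT and pituitary, and liver and pituitary, as without the block; leaving out mice gave 10, 10 and 7 to 8, the eighth being Lipe.

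The sign turned for Mgll in eWAT FED-HFD vs FED-CTRL (0.07 by voom with quality weights, -0.10 to 0.08 with a mouse left out, 0.09 without mice 23 and 5) and in CR20-HFD vs FED-HFD (-0.05 by voom, -0.05 to 0.13 with a mouse left out and -0.06), and for Lpl in the latter (-0.01 to 0.15 with a mouse left out and -0.01 without both); mouse 23 was the mouse whose removal turned each. The cause was not tested. Of the single-gene values, 102 of 528 with a mouse left out and 32 of 382 others lost their call, all among the surrounding genes. Both totals include eWAT values of the members, which had no call to lose. The shares therefore understate how often a call was lost.

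Counts over all eWAT genes moved with the settings. For FED-HFD vs FED-CTRL 1680 genes were called, 3291 by voom with quality weights and 878 without mouse 23. For CR20-HFD vs FED-HFD they were 2385, and 1365 without mouse 23. The averaged diet effect called 40 genes, 1104 by voom with quality weights and 553 by DESeq2, and the interaction 365, 144 by voom with quality weights, 0 by voom without weights and 824 by DESeq2. Between eWAT and liver the median log2 difference of all genes was 0.22, and 0.11 by DESeq2.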
